A study of Mus musculus with 4 samples.

Results

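The regions described here are stretches of open chromatin that lay deep inside protein-coding genes and carried a peak in every library of the study. Peaks on chromosomes 1 to 19 of the 4 libraries were merged wherever they shared at least 1 bp, and a region was kept when it had a peak in all 4 libraries, lay inside a RefSeq protein-coding gene shorter than 500 kb and was at least 10 kb from every end of any protein-coding gene. Of 65969 merged regions, 14331 were shared by all 4 libraries and 1973 of these met the rule. They lay in 1384 host genes, and 8 of them lay inside 2 genes at once. Values of open chromatin strength chose the members only through the authors' peak threshold, and no difference between groups was used.

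Chromatin accessibility was measured by ATAC-seq, which marks open DNA with a transposase, in tissue of the hypothalamic paraventricular nucleus (PVH), a centre of hormone release and of appetite control. All mice were 12 weeks old, carried floxed Otp and the reporter allele Ai14 (Otp fl/fl; Ai14), and were dissected 4 weeks after injection of an adeno-associated virus. The 2 control libraries came from mice given AAV-GFP and the 2 knockout libraries from mice given AAV-Cre, which removes Otp, a homeodomain factor of hypothalamic neurons, in the cells it infects. The study asked where the open promoter chromatin of Mc4r lies and whether adult loss of Otp makes chromatin less accessible near its targets. Neither a sort for infected cells nor the promoter that drives the virus is stated in the labels. They are also silent on how many animals a library holds and whether each library has its own, so differences within a group may be technical.

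Open chromatin inside a gene and far from its ends usually marks enhancers, insulators or starts of shorter transcripts of the same gene. Enhancers carry binding sites for transcription factors and differ between cell types far more than the main promoters do, so in brain tissue such regions tend to reflect the mixture of neurons and glia. Long neuronal genes, such as those of ion channels and synaptic scaffolds, hold much intronic DNA in which such elements can lie. In bulk tissue, fewer cells of a type and less open chromatin per cell cannot be told apart.

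A minority of the members sat on a transcript start that RefSeq annotates inside the host gene. RefSeq windows of 250 bases before to 50 after an annotated start were available for 1091 host genes, and 273 members (13.8%) overlapped at least 1 such window of any gene, 242 of them a window of their own host. Hosts without a window in the table cannot count here, so these numbers, and later ones on members with a start, are lower limits. For comparison, 75.6% of shared gene-end regions, within 1 kb of a gene end, and 7.23% of shared distal intergenic regions, at least 10 kb from every gene, overlapped one. The windows of the 4 strongest such members are shown first, by the worst of their 4 strength ranks, from RefSeq on GRCm38.p6 (the mm10 assembly), 5′ to 3′ on the gene's strand. Capitals mark the motifs searched on both strands: the GC box GGGCGG, the CCAAT box CCAAT, the ETS motif CCGGAAG, the cAMP response element TGACGTCA, the E-box CACGTG, the TATA box TATAAA and the homeodomain core TAATTA.
Hdac4, chr1:92180292-92180591, minus strand: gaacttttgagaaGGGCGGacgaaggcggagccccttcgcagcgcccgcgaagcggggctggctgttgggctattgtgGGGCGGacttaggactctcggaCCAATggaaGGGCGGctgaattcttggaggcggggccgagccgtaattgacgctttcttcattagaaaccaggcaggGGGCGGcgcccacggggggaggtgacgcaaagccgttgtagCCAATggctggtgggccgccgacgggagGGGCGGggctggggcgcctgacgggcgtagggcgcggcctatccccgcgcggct
1110004F10Rik, chr7:116093130-116093429, plus strand: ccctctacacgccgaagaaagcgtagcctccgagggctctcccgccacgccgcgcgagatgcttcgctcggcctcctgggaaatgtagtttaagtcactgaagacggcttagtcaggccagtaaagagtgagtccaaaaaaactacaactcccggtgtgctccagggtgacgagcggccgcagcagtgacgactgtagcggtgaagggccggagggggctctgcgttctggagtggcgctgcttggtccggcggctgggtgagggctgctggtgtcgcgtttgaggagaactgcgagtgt
Rps6ka2, chr17:7169865-7170164, plus strand: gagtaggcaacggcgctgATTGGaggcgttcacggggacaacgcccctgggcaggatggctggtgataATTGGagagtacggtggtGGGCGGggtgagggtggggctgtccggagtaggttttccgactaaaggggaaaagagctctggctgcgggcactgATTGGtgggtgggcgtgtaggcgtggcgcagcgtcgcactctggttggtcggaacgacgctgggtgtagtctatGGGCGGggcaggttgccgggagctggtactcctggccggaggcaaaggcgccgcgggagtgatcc
Lrif1, chr3:106721432-106721731, plus strand: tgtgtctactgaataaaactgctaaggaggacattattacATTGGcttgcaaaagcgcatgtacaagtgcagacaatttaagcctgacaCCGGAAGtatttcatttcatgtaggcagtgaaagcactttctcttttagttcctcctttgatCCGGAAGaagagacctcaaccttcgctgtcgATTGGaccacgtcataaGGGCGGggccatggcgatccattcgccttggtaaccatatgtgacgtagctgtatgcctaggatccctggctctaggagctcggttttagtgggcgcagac

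The Hdac4 window held 5 GC boxes and 2 CCAAT boxes at a GC content of 68.0%. The Rps6ka2 window held 2 GC boxes and 3 CCAAT boxes, and the Lrif1 window 1 GC box, 2 CCAAT boxes and 2 ETS motifs at a GC content of 47.7%. In the 1110004F10Rik window none of the searched letters was found, which says nothing about the factors.

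The next windows belong to the members at a start of their own host that shifted most in rank between the groups. Pak1 and Wiz ranked weaker after AAV-Cre, and Pakap and Mga ranked stronger.
Pak1, chr7:97842689-97842988, plus strand: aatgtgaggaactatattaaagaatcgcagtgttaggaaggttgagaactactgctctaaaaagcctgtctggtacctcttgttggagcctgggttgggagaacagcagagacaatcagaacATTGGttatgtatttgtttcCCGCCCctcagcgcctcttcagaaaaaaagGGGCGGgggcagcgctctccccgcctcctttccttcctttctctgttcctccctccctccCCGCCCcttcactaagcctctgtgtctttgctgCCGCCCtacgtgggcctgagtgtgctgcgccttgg
Wiz, chr17:32364414-32364713, minus strand: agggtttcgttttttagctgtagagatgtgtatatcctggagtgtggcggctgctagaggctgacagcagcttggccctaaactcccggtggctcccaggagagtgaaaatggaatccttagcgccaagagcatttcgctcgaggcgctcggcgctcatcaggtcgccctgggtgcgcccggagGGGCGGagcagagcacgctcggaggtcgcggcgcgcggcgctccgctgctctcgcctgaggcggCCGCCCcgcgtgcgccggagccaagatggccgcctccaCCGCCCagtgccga
Pakap, chr4:57567580-57567879, plus strand: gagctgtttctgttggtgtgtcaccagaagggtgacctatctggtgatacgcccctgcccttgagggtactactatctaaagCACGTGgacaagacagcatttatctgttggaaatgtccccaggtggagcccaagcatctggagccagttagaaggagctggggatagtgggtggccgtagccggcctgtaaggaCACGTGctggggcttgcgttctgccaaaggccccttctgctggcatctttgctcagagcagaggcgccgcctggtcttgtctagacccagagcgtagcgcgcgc
Mga, chr2:119896978-119897277, plus strand: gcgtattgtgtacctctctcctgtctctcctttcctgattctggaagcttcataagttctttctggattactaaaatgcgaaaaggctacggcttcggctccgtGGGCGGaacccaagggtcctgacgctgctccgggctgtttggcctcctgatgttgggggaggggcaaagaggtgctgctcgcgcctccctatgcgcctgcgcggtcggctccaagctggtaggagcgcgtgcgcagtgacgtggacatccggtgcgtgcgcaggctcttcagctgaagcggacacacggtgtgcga

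The Pak1 window held 4 GC boxes and 1 CCAAT box and the Wiz window 3 GC boxes. The Pakap window held 2 E-boxes, each the palindrome CACGTG, and the Mga window 1 GC box. No motif was common to the pair in either direction except the GC box in Pak1 and Wiz. GC boxes were also frequent among other windows: 59.5% of the 328 windows at members held one, against 71.4% of the 7923 windows at shared gene-end regions, 36% of all 31396 windows and 12% of the 2084 windows deep inside genes where no library had a peak. The ratio of observed to expected CpG showed the same order, with a median of 0.663 at members, 0.82 at shared gene ends, 0.389 over all windows and 0.23 in deep windows without a peak. ETS motifs were in 9.76% of member windows, 22.1% of gene-end windows, 9.0% of all windows and 2.64% of deep windows without a peak. TATA boxes were in 5.49%, 5%, 13.6% and 16.2% in the same order. The homeodomain core TAATTA was in 1.83% of member windows, close to the 1.57% of gene-end windows. It was in 5.27% of all windows and 5.9% of deep windows without a peak. Median GC content was 61.7% at members, 63.0% at gene ends, 53.0% over all windows and 48.0% in deep windows without a peak. The motif shares are not adjusted for GC content.

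3 members covered a microRNA hairpin in the RefSeq table. One lay in Arpp21, a neuronal phosphoprotein gene whose intron carries Mir128-2, a microRNA abundant in brain. The mature products, with the seed (bases 2 to 8) in capitals, are:
mmu-miR-128-3p: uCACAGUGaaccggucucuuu
mmu-miR-128-2-5p: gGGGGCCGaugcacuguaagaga
The Arpp21 region, at chr9:112118422-112119114, contained the hairpin whole, from 112118636 to 112118711 on the minus strand. Its fold enrichment, which the authors give as summit signal over background, was 5.93 and 6.50 in the AAV-GFP libraries and 6.02 and 4.59 in the AAV-Cre libraries, so the groups overlapped. The others lay over Mir7687 in Gse1 and over Gm38671, which gives mmu-miR-9768, in Mcf2l. Both had low folds, of 3.18 to 4.53 in Gse1 and 4.02 to 5.75 in Mcf2l.

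The lists held 57682 and 34100 peaks in the AAV-GFP libraries and 23384 and 26612 in the AAV-Cre libraries, and read depth is unknown. Strength was therefore compared by rank: in each library the strongest peak of a region was ranked by the authors' −log10 p among the 14331 shared regions and given as a percentile, with 0 the strongest. A gene-end peak was seen in all 4 libraries at Pou3f2 and Mc4r and in 3 at Otp. It was seen in 2 at each of Sim1, Slc17a6, Crh and Trh, in 1 at Oxt and in 0 at Avp and Arnt2. Otp, Mc4r and Pou3f2 are too short to hold a member, and Sim1, Arnt2 and Slc17a6 held 0. With 2 libraries a group there are 3 ways to split them, so no exact permutation p can fall below 0.33. Differences between the groups are therefore given as values and counts with no test.

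Deep intragenic regions were weaker and narrower than gene-end regions in every library. Their median fold was 7.61 and 6.91 in the AAV-GFP libraries and 6.03 and 6.28 in the AAV-Cre libraries, against 9.79, 8.75, 7.0 and 7.22 at gene ends. Median peak width was 377, 370, 291 and 317 bp in the same order, against 523, 573, 444 and 471 bp. Distal intergenic regions were close to them in width, at 391.5, 374, 290 and 324 bp, with medians of fold of 8.75, 7.54, 6.28 and 6.65. The order of gene ends over members held in 4 of 4 libraries for both measures and is given without a test.

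**Figure D1:**
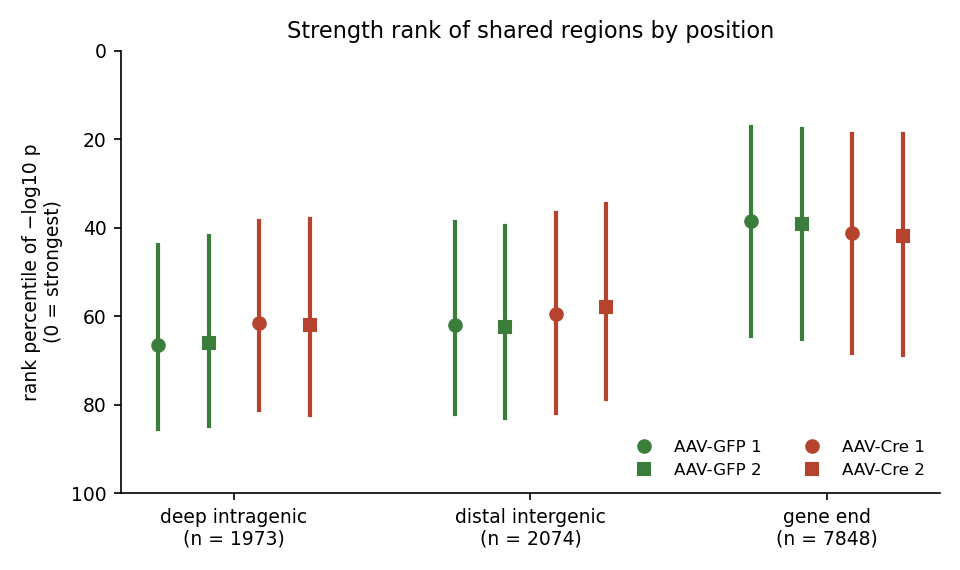
Rank percentile of −log10 p (y axis, 0 at the top is strongest) for shared deep intragenic, distal intergenic and gene-end regions in each of the 4 libraries; points are medians and bars run from the lower to the upper quartile over regions. Medians of deep intragenic regions lie at 66.6 and 66.0 with AAV-GFP and 61.6 and 62.0 with AAV-Cre, below the gene ends at 38.4 to 41.9.

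Most members were well defined single peaks. In 1817 (92.1%) each library had exactly 1 peak, and the summits of the 4 libraries lay within a median of 101 bp of each other. Fold ran from 3.13 to 65.8 in AAV-GFP replicate 1, with the middle 80% of members between 4.91 and 12.3, and from 3.12 to 56.6 in AAV-Cre replicate 1. The authors' pooled AAV-GFP list had a peak at 1973 of the members and their pooled AAV-Cre list at 1967. Across the 1973 members the ranks of the AAV-GFP libraries had a Spearman correlation of 0.718, those of the AAV-Cre libraries 0.559, and pairs across the groups 0.545 to 0.60. These correlations are over regions of the same 4 libraries and describe how far ranks repeat. Over all shared regions they were higher, at 0.814, 0.707 and 0.695 to 0.739.

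Sharing by all 4 libraries was the exception deep inside genes. Of 17188 deep intragenic regions, 1973 (11.5%, 95% Wilson interval 11.0 to 12.0, counting error only) were in 4 libraries, 1861 in 3, 3507 in 2 and 9847 in 1. Among those in 3 libraries, 995 lacked a peak in AAV-Cre replicate 1 and 537 in AAV-Cre replicate 2, against 254 and 75 that lacked AAV-GFP replicate 2 and 1. The order follows the length of the lists. The share was 11.1% for distal intergenic regions and 55.4% for gene ends. Members occurred at 3.73 per Mb of deep gene interior, and shared distal regions at 1.67 per Mb of distal intergenic DNA. For regions of any number of libraries the densities were 32.5 and 15.1 per Mb.

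The strongest members were chosen by the worst of their 4 ranks, so a high rank in every library is part of the choice. They lay in genes of unlike function. The strongest was in Gphn, which encodes the gephyrin scaffold of inhibitory synapses, at chr12:78350869-78351171 and 133544 bp from the nearest gene end. Its fold was 65.8 and 55.8 with AAV-GFP and 56.6 and 51.5 with AAV-Cre. The region in Jarid2, a partner of Polycomb repressive complex 2, at chr13:44869565-44870022, had folds of 36.6, 39.5, 41.0 and 36.3. The groups overlapped at both in fold. Peak1, a pseudokinase gene of the cytoskeleton, followed at chr9:56223573-56223961 with 31.9, 28.6, 29.2 and 28.0.

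These regions had almost the same edges in every library. Peaks were 298 to 303 bp wide in Gphn, 456 to 458 bp in Jarid2, 382 to 389 bp in Peak1 and 339 to 353 bp in Arhgap21, at chr2:20899853-20900205. None of these 4 overlapped an annotated start. No source used here says how reads that match several places in the genome were handled. Arhgap21, a GTPase-activating protein, had folds of 20.6 and 23.9 with AAV-GFP and 30.1 and 27.1 with AAV-Cre, without overlap and higher after AAV-Cre. The others of the 8 strongest were broader. Smo, the Hedgehog signal transducer, held a region of 1404 bp at chr6:29747690-29749093 with folds of 23.1, 20.5, 23.6 and 23.1, where the AAV-Cre libraries lay just above the controls. Asah1, acid ceramidase, had 19.5, 18.8, 17.7 and 15.6 at chr8:41374388-41375067, lower in fold in both AAV-Cre libraries. By rank Asah1 stood higher after AAV-Cre, at percentiles 2.33 and 2.46 with AAV-GFP against 0.722 and 1.42. Hdac4, a class IIa histone deacetylase, and 1110004F10Rik stood on the annotated starts shown above, with folds of 13.5, 16.4, 14.0 and 13.6 in Hdac4 and of 22.7, 19.3, 14.6 and 17.3 in 1110004F10Rik. The groups overlapped in Hdac4. In 1110004F10Rik both AAV-Cre libraries were lower in fold, while ranks overlapped, at percentiles 0.82 and 2.26 with AAV-GFP against 2.89 and 0.966.

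After AAV-Cre, deep intragenic regions stood somewhat higher in rank relative to the other shared regions. The median shift, mean AAV-Cre minus mean AAV-GFP percentile, was -2.84 points over members, against -0.01 over all shared regions, 1.12 at gene ends and -2.43 in distal intergenic regions. A region was called stronger or weaker after AAV-Cre when the ranks of the groups did not overlap and the means differed by at least 20 percentile points. Of the members, 261 (13.2%) were called stronger and 128 (6.49%) weaker. The background over all 14331 shared regions was 8.56% stronger and 9.05% weaker. Without the size limit, groups did not overlap toward stronger in 495 members (25.1%, background 19.7%) and toward weaker in 295 (15.0%, background 19.7%). Ranks are relative, so members standing higher and gene ends standing lower are one measurement and not separate changes, and neither shows a gain of accessibility.

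At single members the median size of the shift lay between the median differences within the 2 groups. The shift compares means of 2 libraries, which vary less than single libraries. Its size is therefore not directly comparable with a difference between single libraries. The AAV-GFP libraries differed from each other by a median of 10.7 percentile points at a member and the AAV-Cre libraries by 14.3, while the median size of the shift was 11.3. It exceeded both within-group differences in 512 members (26.0%), a share that is not given here for all shared regions. Over all shared regions the same medians were 9.77, 12.8 and 9.63 points. Without AAV-Cre replicate 1 the median shift was -1.29, over the 2965 members shared by the other 3 libraries. With 1 library left in a group, groups fail to overlap more easily: stronger and weaker calls numbered 331 and 212 without AAV-GFP replicate 1, 423 and 238 without AAV-GFP replicate 2, 570 and 385 without AAV-Cre replicate 1, and 530 and 316 without AAV-Cre replicate 2. Ranked among the members alone, 229 were called stronger and 237 weaker, with a median shift of 0.27, so the surplus is one of members against the other shared regions.

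The surplus of stronger over weaker calls was seen at each level of strength. Shared regions were divided into quintiles by their mean percentile over the 4 libraries. In quintile 1, the strongest, 6 of 159 members were called stronger and 0 weaker. The counts were 33 and 15 of 295 in quintile 2, 58 and 35 of 394 in quintile 3, 99 and 51 of 503 in quintile 4, and 65 and 27 of 622 in quintile 5. Over all shared regions the stronger and weaker shares were 0.767% and 0.942% in quintile 1, 7.61% and 10.8% in quintile 2, 12.4% and 14.3% in quintile 3, 13.5% and 13.7% in quintile 4 and 8.62% and 5.55% in quintile 5. In quintile 5 all shared regions thus had a surplus of stronger calls too, beside 10.5% and 4.34% of members. Gene ends showed more weaker than stronger calls in every quintile, for example 208 weaker and 103 stronger of 1273 in quintile 4. Distal intergenic regions followed the members, with 108 stronger and 72 weaker of 535 there. List lengths differed between the groups as given above. With every list shortened to its strongest peaks at the length of the shortest, 177 of 1397 members were called stronger and 77 weaker, and the median shift was -2.77. The shares over all shared regions were not counted at that length. The division into quintiles was chosen after seeing the data.

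**Figure D2:**
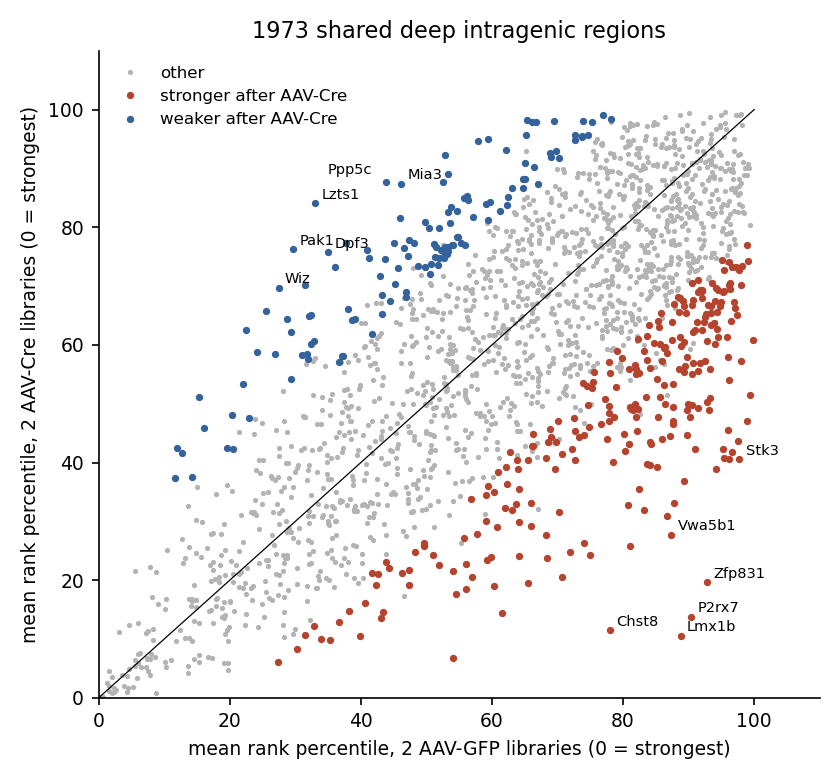
Mean rank percentile of each of the 1973 members in the AAV-GFP (x axis) and AAV-Cre libraries (y axis), 0 being strongest; the line marks equal rank. Red points are the 261 called stronger after AAV-Cre and blue points the 128 called weaker, and the 6 largest shifts each way carry their host's name.

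The 6 members named in each direction were chosen by shift among those whose ranks did not overlap. Separation of the groups is therefore part of the choice. The largest shifts toward stronger rank were in Lmx1b, P2rx7 and Zfp831. In Lmx1b, a LIM homeodomain gene, the region at chr2:33616074-33616967 stood at percentiles 94.9 and 82.6 with AAV-GFP and 10.7 and 10.4 with AAV-Cre. Its fold was 5.28, 6.01, 10.2 and 11.5 in the same order. Both AAV-Cre libraries lay well above both controls. In P2rx7, an ATP-gated cation channel, the region at chr5:122668782-122669333 had folds of 7.42 and 4.76 against 10.9 and 11.5. In Zfp831, a zinc finger gene, that at chr2:174668773-174669151 had 5.68 and 4.24 against 8.32 and 9.77. The groups did not overlap at either.

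Chst8, Vwa5b1 and Stk3 came next, and none of the 6 overlapped an annotated start. Chst8, a sulfotransferase that acts on pituitary hormone sugars, had folds of 6.86 and 7.09 against 9.89 and 11.9 at chr7:34746165-34746745. Vwa5b1 had 5.32 and 5.72 against 8.18 and 8.30 at chr4:138597872-138598455. Stk3, a kinase of the Hippo pathway, had 4.66 and 4.76 against 7.0 and 9.94 at chr15:35116711-35117686. The authors' pooled lists, made from the same libraries and so no separate evidence, gave folds of 6.81 with AAV-GFP and 12.1 with AAV-Cre in Lmx1b and 4.94 and 11.3 in Stk3.

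The largest shifts toward weaker rank were smaller in size, from 40.8 to 51.0 points. Lzts1, a leucine zipper protein of the cytoskeleton, stood at percentiles 38.7 and 27.4 with AAV-GFP and 84.3 and 83.8 with AAV-Cre, at chr8:69149118-69149685. Its folds were 10.3 and 10.9 against 5.08 and 5.22, so that the controls lay at about the same level and well above both AAV-Cre libraries. Pak1, a kinase activated by Rac and Cdc42, had folds of 11.3 and 11.3 against 4.85 and 6.43 on the annotated start printed above. Ppp5c, a serine/threonine phosphatase, had 9.28 and 9.51 against 4.63 and 5.08 at chr7:17017052-17017432.

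Wiz, Mia3 and Dpf3 completed the 6. Wiz, a zinc finger partner of the G9a and GLP methyltransferases, had folds of 12.9 and 9.25 against 7.24 and 3.78, and AAV-Cre replicate 1, at percentile 40.4, ranked close to AAV-GFP replicate 2, at 35.9. Mia3, which exports collagen from the endoplasmic reticulum, had 11.0 and 6.58 against 5.09 and 3.85 at chr1:183344874-183345949, over a start of the non-coding gene Gm34102. Dpf3, a subunit of BAF chromatin remodelling complexes, had 9.55 and 10.9 against 4.77 and 6.30 at chr12:83302376-83303377.

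**Figure D3:**
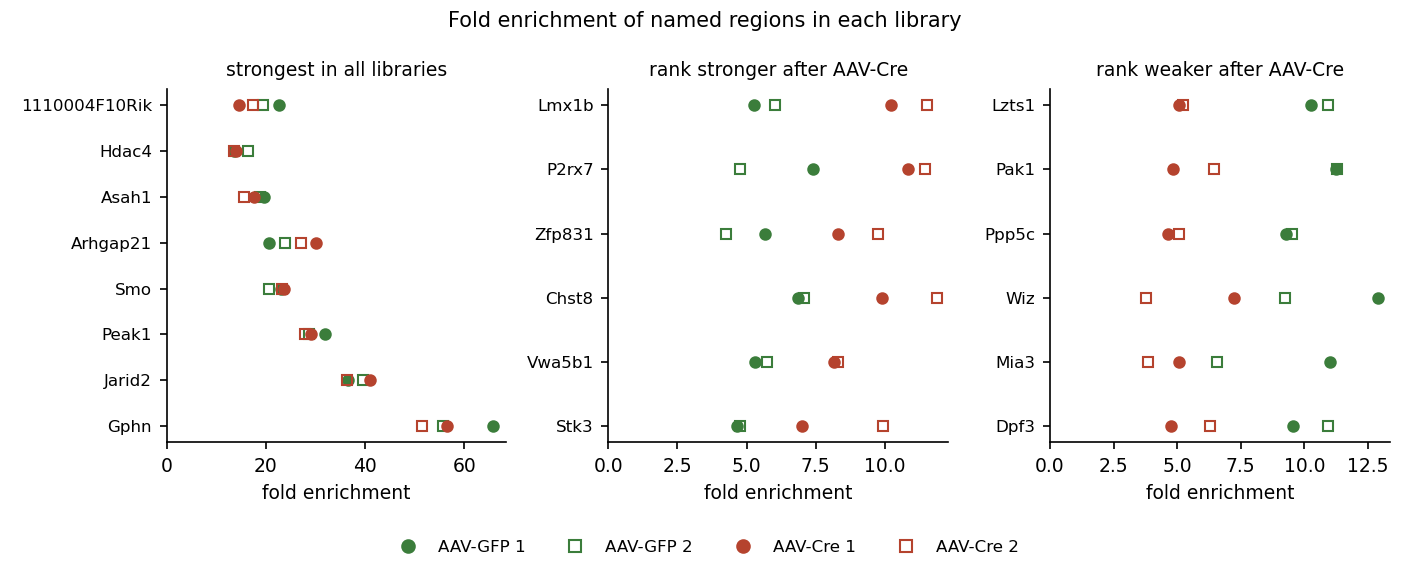
Fold enrichment, the authors' value, of the 8 strongest members (left), the 6 with the largest shift to stronger rank after AAV-Cre (middle) and the 6 with the largest shift to weaker rank (right); filled circles are replicate 1 and open squares replicate 2, green AAV-GFP and red AAV-Cre. In the middle panel red lies right of green in each row, in the right panel left of it, and on the left 4 of 8 rows overlap. Rows of the middle and right panels were chosen for ranks that do not overlap, so their separation follows from the choice.

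Members on annotated starts resembled gene ends more than the remaining members did. Their median folds were 9.09, 8.31, 6.85 and 7.01, against 7.43, 6.79, 5.93 and 6.19 for the 1700 members where no start was found. They were wider, at 458, 493, 390 and 394 bp against 365, 354, 282 and 306 bp. Of the 273, 18 (6.59%) were called stronger and 21 (7.69%) weaker, against 243 (14.3%) and 107 (6.29%) of the 1700. The shares were 4.87% stronger and 9.98% weaker at shared gene ends, and 8.56% and 9.05% over all shared regions. At the 4 windows named for rank shift, Pakap, an A-kinase anchoring protein, stood at percentiles 62.6 and 87.2 with AAV-GFP and 26.1 and 22.7 with AAV-Cre. Mga, a MAX-binding transcription factor, stood at 63.4 and 48.7 against 17.8 and 19.1. Folds did not separate the groups in Pakap, at 8.44 and 5.58 against 8.35 and 9.46, but did in Mga, at 7.77 and 8.42 against 9.68 and 10.4.

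Members on starts lay nearer the 5′ side of their host. The strand of the host was known for 1537 members, and position was counted from the 5′ end. Of 267 with a start, 61.8% lay on the 5′ side of the host's midpoint and 7.12% in its last quartile by length, against 46.9% and 20.6% of 1270 without one. Deep intragenic regions found in 1 library were close to the latter, with 48% of 7638 before the midpoint and 19.5% in the last quartile.

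**Figure D4:**
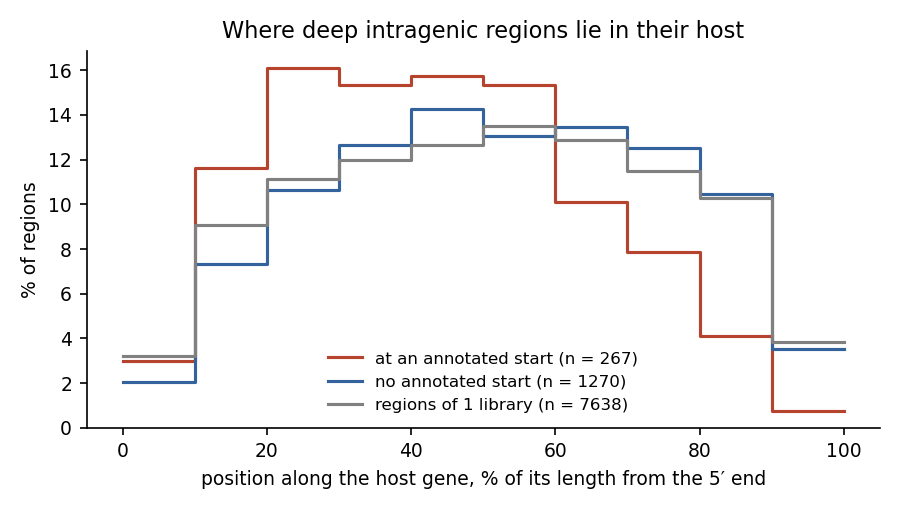
Position of deep intragenic regions along the host gene, in percent of its length from the 5′ end (x axis, bins of 10), as the percent of each set (y axis). Members at an annotated start (red, 61.8% before the midpoint) lie toward the 5′ side, while members without one (blue, 46.9%) follow the regions of 1 library (grey, 48%).

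Ends of non-coding genes lay within 1 kb of 127 members (6.44%), of which 72 did not overlap an annotated start window. At 108 of them the non-coding gene was a long non-coding RNA. The strongest were in 1110004F10Rik, in Stard13, a GTPase-activating protein, in Kifap3, an adaptor of kinesin 2, and in Elf2, an ETS factor. Stard13 had folds of 17.5, 19.4, 14.7 and 15.6 beside 1700028E10Rik, Kifap3 19.9, 19.3, 19.3 and 16.4 beside Gm51663 and on a start of its own, and Elf2 16.9, 14.9, 12.9 and 11.6 beside 4930577N17Rik. All stood within percentile 6.53 in each library.

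Most hosts held a single member. Of the 1379 genes counted as hosts when each member is given to its shortest host, 1006 held 1 member and 373 held more, with 967 members among them. Neighbours in the same host were a median of 31.3 kb apart, and 49 of 594 gaps were under 5 kb. Cmip held 8 members, Gse1, Ldlrad4 and Myt1l 7 each, and Abr, Chd9, Gramd1b, Tex14 and Tmcc3 6 each. These genes are 150.811 to 395.627 kb long, against a median of 110.8 kb for all hosts.

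Hosts with many members differed in strength and in rank shift. In Myt1l, a zinc finger factor of neuronal identity, 0 of 7 members were called in either direction, and the region at chr12:29872249-29872847 had folds of 12.3, 13.8, 12.0 and 12.7. In Cmip 3 of 8 members were called stronger and 0 weaker, and in Gse1, whose product associates with histone demethylase complexes, 2 of 7 and 0. Ldlrad4, an inhibitor of TGF-beta signalling, had 1 stronger and 2 weaker of 7. Chd9, a chromatin remodeller, had 1 stronger of 6, and its region at chr8:90907860-90908685 was the strongest there, at 13.0, 12.6, 13.3 and 10.6. Abr, a regulator of small GTPases, and Gramd1b, a carrier of cholesterol at the endoplasmic reticulum, had 0 called in either direction. The shares called stronger and weaker were 13.2% and 6.49% over all members and 8.56% and 9.05% over all shared regions.

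In Tex14, a gene of germ cell bridges, the members lay at small RNA genes. All 6 of its regions lay within 1 kb of an end of a small RNA gene that RefSeq lists as snRNA, among them Rnu1a1 of the U1 family and Rnu3b1, Rnu3b2, Rnu3b3 and Rnu3b4 of the U3 family. Folds ran from 5.25 to 11.5 over the 6 regions and 4 libraries. 4 of the 6 were called stronger after AAV-Cre and 0 weaker, and the median shift was -21.7 points. Over all shared regions 8.56% were called stronger and 9.05% weaker, and over all members 13.2% and 6.49%. At chr11:87442763-87443737, beside Rnu3b1, the folds were 8.29 and 8.35 with AAV-GFP and 8.79 and 9.58 with AAV-Cre. At chr11:87426701-87427206, beside Gm22068, they were 7.76 and 6.31 against 8.81 and 7.09, and the groups overlapped in fold. These RNA genes have near-identical copies, so reads of one may be counted at another and the values are uncertain.

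Longer genes held a member more often. A gene could host a member when some of its interior lay at least 10 kb from every gene end, which held for 9209 genes. Of these, 1384 (15%) did. The share was 2.17% in the quartile of genes with the least such interior, 7.12% and 15% in the next quartiles and 35.8% in the one with the most. Gene-end peaks in all 4 libraries were found at 51.2% of hosts and 51.1% of the genes that could host a member and did not.

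Genes of 17 functional and cell type lists were counted as hosts beside both backgrounds, the 15% of all 9209 genes and the share among genes in the same decile of interior length as each member of the list. The lists hold 467 genes, and no test was made over them. The lists were chosen with earlier results of these data known, and whether that choice raised the shares was not tested. Among the 17 lists, those of signalling and excitability genes held members most often. Of cyclic nucleotide and calcium signalling genes 18 of 26 (69.2%) were hosts, against 33.7% of genes of the same interior length. In the list named voltage-gated channels 17 of 26 genes (65.4%, against 37.1%) were hosts. These hosts include Kcnn2, Kcnn3 and Kcnj6, potassium channels that voltage does not gate, so the share is that of the list as drawn up.

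The members with the best worst rank in these lists are described next. In Itpr1, the calcium release channel of the endoplasmic reticulum, the region at chr6:108426723-108427259 had folds of 13.3, 10.4, 8.70 and 8.69. Camk2d, a calmodulin kinase subunit, had 11.8, 12.1, 7.97 and 9.18 at chr3:126695373-126695799, and Pde7b, a cyclic AMP phosphodiesterase, 13.3, 15.9, 9.27 and 8.93 at chr10:20474860-20475352. In all 3 both controls had the higher fold, while ranks overlapped. Cacna1e, a calcium channel subunit, stood at percentiles 19.1 and 24.3 with AAV-GFP and 18.9 and 24.0 with AAV-Cre. Cacnb4, an auxiliary calcium channel subunit, had its member on an annotated start of its own, with folds of 15.7, 11.8, 8.83 and 9.48. Among the potassium channels Kcnq1 had folds of 15.5, 11.0, 11.3 and 10.3, with ranks that did not overlap, at percentiles 22.3 and 30.6 against 12.8 and 20.4, and Kcnd3 12.1, 9.11, 7.76 and 9.68. In the channel list 6 of 28 members were called stronger and 3 weaker, and in the cyclic nucleotide and calcium list 7 and 3 of 36, with median shifts of -4.21 and 0.53. The shares over all members were 13.2% stronger and 6.49% weaker, and over all shared regions 8.56% and 9.05%.

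Neuronal, guidance and transcription factor lists followed. Pan-neuronal genes were hosts in 9 of 20 cases (45%, against 27%), axon guidance and adhesion genes in 14 of 29 (48.3%, against 35.8%) and broad transcription factors in 15 of 31 (48.4%, against 34.2%). Ank3, which encodes ankyrin G of the axon initial segment, stood at percentiles 22.6, 34.8, 34.7 and 21.6. Elavl2, a neuronal RNA-binding protein, had a member on an annotated start of its own, at percentiles 18.6 and 11.3 with AAV-GFP and 16.4 and 55.3 with AAV-Cre, where AAV-Cre replicate 2 alone stood apart. Unc5c, a netrin receptor, had folds of 11.2, 9.11, 7.78 and 9.57, and Nfasc, an adhesion protein of the node of Ranvier, stood at percentiles 39.7, 31.1, 11.5 and 38.6. Zbtb16, a zinc finger factor, stood at percentiles 40.4, 11.6, 21.9 and 11.9, with the difference lying inside the control group. Maml3, a Notch coactivator, stood at 27.8 and 22.0 against 18.7 and 13.1, without overlap but 9.0 points apart. Chromatin regulators were hosts in 13 of 30 cases (43.3%, against 25.1%). Besides Jarid2 and Hdac4 these included Dnmt3a, a DNA methyltransferase, at percentiles 7.66, 6.86, 7.06 and 15.1, and Dot1l, a histone H3 methyltransferase, at 16.0, 10.4, 13.2 and 7.11. Glutamate and GABA receptor genes were hosts in 7 of 23 cases (30.4%), near the 34.3% of genes of that interior length.

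**Figure D5:**
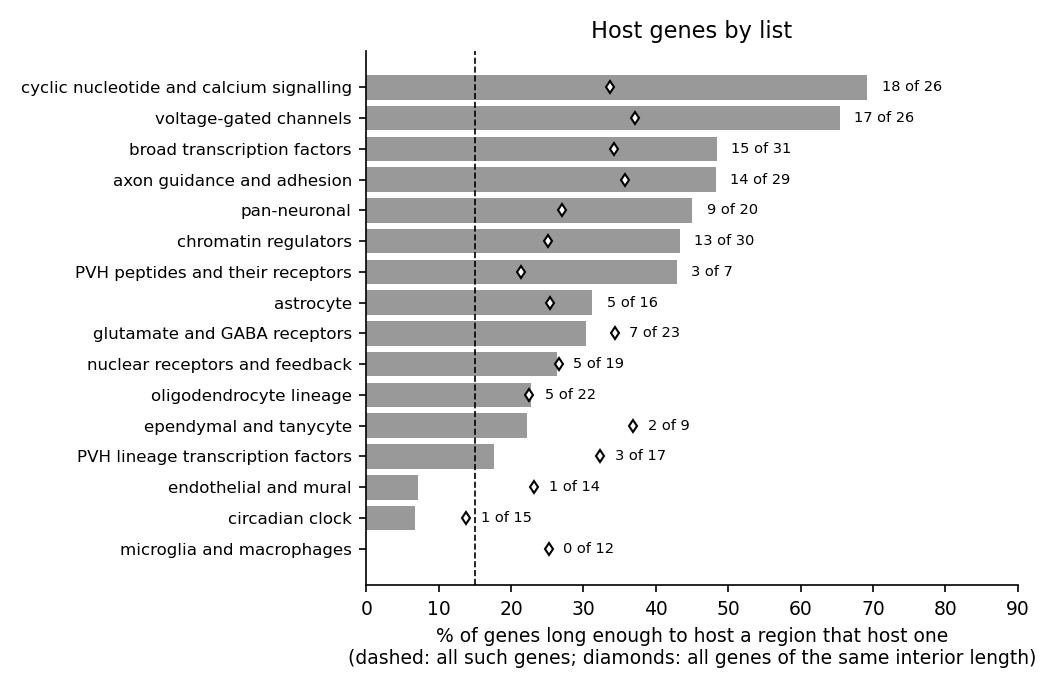
For 16 of the 17 lists, percent of the genes that could host a member and did (bars, with counts), the same percent over all 9209 such genes (dashed line, 15%) and over genes in the same decile of interior length (diamonds). Bars pass the diamond most clearly for cyclic nucleotide and calcium signalling (69.2% against 33.7%) and voltage-gated channels (65.4% against 37.1%), and fall short of it for microglia and macrophages (0% against 25.2%). The channel list also holds Kcnn2, Kcnn3 and Kcnj6, which voltage does not gate. The lists were chosen with earlier results of these data known.

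Transcription factors of the PVH lineage held few members, and receptors of PVH peptides held more. Of PVH lineage transcription factors 3 of 17 (17.6%, against 32.3%) were hosts, among them Pbx3, a partner of homeodomain factors, and Tshz2, a zinc finger factor. Pbx3 had folds of 8.51 and 8.39 with AAV-GFP and 4.31 and 6.63 with AAV-Cre, and its percentiles, 72.5 and 57.6 against 96.8 and 66.7, overlapped. None of the 4 members in this list was called in either direction, beside 8.56% stronger and 9.05% weaker over all shared regions. Of PVH peptides and their receptors 3 of 7 genes (42.9%, against 21.3%) were hosts, all of them receptors. Crhr1, the receptor of corticotropin-releasing hormone, had folds of 11.2 and 6.96 against 5.02 and 6.39 at chr11:104157976-104158431 and was called weaker after AAV-Cre, by 23.8 points, although AAV-GFP replicate 2 and AAV-Cre replicate 2 stood at percentiles 64.0 and 65.1. Adcyap1r1, the PACAP receptor, had 5.39 and 3.52 against 6.10 and 4.79 and was called stronger by rank, by 26.2 points, while its folds overlapped. Ntrk2, the BDNF receptor, stood at 31.5 and 28.4 against 8.78 and 14.5 at chr13:59073487-59074248, over a start of the non-coding gene Gm53063, without overlap and 18.3 points apart. Ntrk2 held 5 members, with 0 called, and their median shift was 13.0: in 2 of them ranks did not overlap toward weaker, in this 1 toward stronger. Of nuclear receptor and feedback genes 5 of 19 (26.3%, against 26.6%) were hosts, and in Rxra, a retinoid X receptor, the member stood at 37.3 and 22.2 against 12.0 and 9.55.

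Glial and vascular lists lay near or below the share of genes of the same interior length, with the astrocyte list the one above it by more than a point. Oligodendrocyte lineage genes were hosts in 5 of 22 cases (22.7%, against 22.5%) and astrocyte genes in 5 of 16 (31.2%, against 25.4%). Gli3, a Hedgehog pathway factor, was called stronger after AAV-Cre, at percentiles 91.7 and 94.7 against 37.5 and 64.3, and so was Gab1, a docking protein of receptor kinases, at 95.3 and 81.9 against 62.5 and 68.6. Members in oligodendrocyte lineage genes were called stronger in 1 of 6 and weaker in 0 of 6, and those in astrocyte genes in 1 and 0 of 5. Beside these small counts, the shares were 13.2% and 6.49% over all members and 8.56% and 9.05% over all shared regions. Ependymal and tanycyte genes were hosts in 2 of 9 cases (22.2%, against 36.9%), endothelial and mural genes in 1 of 14 (7.14%, against 23.2%) and microglia and macrophage genes in 0 of 12 (against 25.2%). The endothelial and mural host was Ets1, with folds of 14.9, 15.2, 7.78 and 10.8. Gene-end peaks in all 4 libraries were found at 1 of the 16 microglia genes, 0 of the 15 endothelial and mural genes and 16 of the 30 pan-neuronal genes. They were also found at 10 of the 27 astrocyte genes, 6 of the 35 oligodendrocyte lineage genes and 4 of the 16 ependymal and tanycyte genes. Circadian clock genes were hosts in 1 case of 15 (6.67%, against 13.8%): Arntl, the gene of BMAL1, with folds of 13.8 and 12.6 against 9.61 and 9.91 on an annotated start of its own.

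The widest members differed much in width between libraries. Ccdc91 held a region of 2973 bp at chr6:147550019-147552991, whose peaks were 2740, 266, 200 and 1910 bp wide with folds of 4.17 to 6.19. Herc2, a ubiquitin ligase, held one of 2387 bp with peaks of 2331, 1984, 175 and 1979 bp and folds of 8.20, 6.55, 3.77 and 7.36. Btbd11 held one of 1803 bp with folds of 6.09, 6.60, 7.57 and 5.42. In Ccdc91 and Herc2 the width differed more between libraries of one group than between the groups. At the limit of the rule, members in Fgr and Pon1 lay 10012 and 10019 bp from the nearest gene end, with folds of 4.54, 7.63, 7.21 and 6.68 and of 8.51, 5.82, 6.55 and 9.43. The nearest shared regions outside it, in Pisd and Rxrg, both lay 9993 bp from an end, with folds of 5.98, 6.54, 5.84 and 5.52 and of 12.7, 8.09, 5.88 and 6.90.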

How the data were processed

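ATAC-seq peak lists of 4 PVH libraries (2 AAV-GFP, 2 AAV-Cre) were used. The submitters' processing notes name MACS2, Bowtie2, Trim Galore and FastQC, and build mm10. No source used here gives their versions, the read filters, any shift for the transposase or the peak threshold. In each list the authors deposited a score (the whole part of 10 times −log10 q for nearly all peaks), a fold enrichment ratio of signal over background at the summit, −log10 p and −log10 q, and positions in bp. The pooled lists, called on each group per their peak names, were used only to describe members. The lowest −log10 q was 1.303 to 1.312. Depth is unknown.

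Peaks were merged, placed against a RefSeq gene table of GRCm38.p6 (20665 protein-coding genes on chromosomes 1 to 19, without exons) and ranked with pandas 2.3.3 and numpy 2.4.6 in Python 3.11.15. Whether a region is exonic or intronic was not determined. Scripts were tested on simulated data. The sequences of the regions themselves are not used here.

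The members and gene lists were chosen with earlier results of these data known. Of 467 listed genes, 461 matched the table. Named members are the 8 strongest by their worst rank, the 6 largest shifts each way without overlap, hosts with most members, the strongest hosts of each list, the 3 widest, those nearest the distance limit, and those at microRNA hairpins or non-coding gene ends. Start windows printed by strength or shift (4, 2 and 2, none from chromosome 18) and the position along the host were chosen after values were seen. A few listed items are not reported here.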

Additional observations from a re-analysis of the deposited data

How the results depend on the processing

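Requiring −log10 q of at least 5 left 1070 members, 147 of them stronger and 70 weaker, with a median shift of -3.71, width of 381.75 bp (338.75 bp as reported), fold of 7.89 (6.71 as reported) and a shared share of 12.1%. With lists of equal length the weaker calls were 77, the fold 7.44 and the share 16.3%. Ranked among members only, weaker calls were 237 and the median shift was 0.27, the one reversal of direction. With shifts of at least 10 points 426 were stronger and 243 weaker, and with at least 30 points 115 and 37. At 5 kb from gene ends the shift was -2.48 and the share 12.2%, at 20 kb the shift was -3.37, and with no limit on host length the share was 10.9%. Without members within 1 kb of an annotated start, an alternative chosen after seeing the data, the shift was -3.55. The merged region was 502 bp wide. Leaving out 1 library at a time gave 2037 to 2965 members, 331 to 570 stronger and 212 to 385 weaker calls, shifts of -4.05 to -1.29, widths of 317.333 to 322.667 bp, folds of 6.36 to 6.57 and shares of 13.9% to 19.6%. The cause of these moves was not tested beyond the smaller number of libraries or peaks.

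Replicate numbers do not mark a shared animal or day in the labels, and the deviations of same-numbered libraries had a correlation of -0.04. Read as a replicate block, with a shift of the same sign in both pairs, 281 members were stronger and 141 weaker, and the median shift was -2.84. Stronger calls outnumbered weaker calls under each alternative except ranking among members only. The alternatives were counted over members alone, so none of these counts has a share over all shared regions beside it. Depth is unknown, so a region absent from a list is not shown to be closed there.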
